A study of Mus musculus with 2 samples.

Results

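Genes of protein folding and of the integrated stress response were examined in Baf53a-deficient mouse embryonic stem (ES) cells kept alive by Baf53a or by its homologue Baf53b. The set was a list of 34 genes in 4 groups: 15 chaperones and folding factors of the endoplasmic reticulum (ER), 5 stress transcription factors, 7 target genes of ATF4 and 7 heat shock genes. A gene was taken up when a probe of the array carried a RefSeq accession of that gene, which held for 33 of the 34, out of 20823 genes named on the array. Hspa1b had no such probe. The 33 genes had 42 probes, of which 40 were well above background on both arrays, and 32 genes could be measured. The remaining gene was Slc7a11, the cystine transporter subunit, whose single probe was not well above background on either array, with signals of 2.11 (Baf53a) and 2 (Baf53b).

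The cells were a single clone derived from the E14 ES cell line, in which both alleles of Baf53a had been mutated with CRISPR/Cas9 and a Cas9-resistant Baf53a cDNA was shut off by tetracycline (Tet). They received a pCAGIP vector for Myc-tagged Baf53a or Myc-tagged Baf53b and were then kept for 6 days in medium with LIF and 1 μg/mL Tet, so that both groups lacked endogenous Baf53a and both carried the same drug and vector backbone. RNA of each group went onto 1 array with 1 colour, and the pair shared a slide and a scan. With 1 array per condition no difference has a replicate check, no test was possible and no p-value is given. Neither empty-vector cells nor cells without Tet were on the arrays, so that the level of these genes before rescue, or without loss of Baf53a, was not measured.

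Each level is log2 of the processed spot signal relative to the 75th percentile of the same array, a signal of 1161 for Baf53a- and 1128 for Baf53b-expressing cells. Differences are Baf53b- minus Baf53a-expressing cells on that log2 scale, where 0.26 is a 1.2-fold and 1 a 2-fold difference. The labels were checked on the transfected genes. Actl6b, which encodes Baf53b, gave a signal of 119 on the array labelled Baf53b and 3.4, not well above background, on the array labelled Baf53a, so that it was higher by at least 14.5-fold, counted from the lowest signal that passed as well above background there. The probe of Actl6a, the gene of Baf53a, read 3806 and 3600, a difference of -0.04 within the spot noise described further on, so that it did not tell the arrays apart and the check rests on Actl6b. The ES cell label was borne out by 8 of 8 pluripotency markers well above background on both arrays, Pou5f1 at 4.55 and 4.41 and Dppa5a at 7.13 and 7.15 among them.

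The ER folds secreted and membrane proteins with chaperones such as BiP, and unfolded proteins there set off the sensors IRE1, ATF6 and PERK. IRE1 splices the mRNA of the transcription factor XBP1, ATF6 is cleaved into one, and both act on chaperone genes through the ER stress response element. PERK and 3 other kinases phosphorylate eIF2α, which lowers translation in general and raises that of ATF4, whose targets serve amino acid supply. This branch is the integrated stress response. In the cytosol the heat shock factors act on a separate set of chaperone genes. ES cells make much protein while they divide and express many chaperones without added stress.

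Motifs in the promoters describe the genes by sequence, independently of the arrays. RefSeq promoter windows of GRCm38.p6, from 250 bases before to 50 bases after the transcription start, were given for 29 of the 34 genes. They were not given for Manf, Hyou1, Atf6, Hspa8 and Hsp90aa1. Each motif was searched on both strands. The ER stress response element (ERSE), which is CCAAT followed after any 9 bases by CCACG, lay in 7 of the 13 ER genes with a window, or 53.8%, and in 37 of 27025 genes in all, or 0.137%. The shorter ERSE-II, in which 1 base of any kind parts ATTGG from CCACG, lay in the windows of Dnajb11 and Herpud1 and in 0.0444% of all genes. ERSE was matched in Hspa5, Hsp90b1 (at 2 places), Calr, Canx, Pdia6, Dnajc3 and Creld2 and in none of the other 3 groups. The windows below have the match in capitals and are written on the strand of the gene, with the ERSE of Hspa5, Calr and Creld2, the last 2 in the opposite orientation, and the ERSE-II of Herpud1. The place of each stretch was chr2:34772004-34772063 on the plus strand for Hspa5, chr8:84847055-84847114 on the minus strand for Calr, chr15:88819499-88819558 on the plus strand for Creld2 and chr8:94386352-94386411 on the plus strand for Herpud1.
Hspa5: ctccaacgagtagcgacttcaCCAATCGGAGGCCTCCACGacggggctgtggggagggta
Calr: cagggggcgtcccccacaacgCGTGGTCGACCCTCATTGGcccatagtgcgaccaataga
Creld2: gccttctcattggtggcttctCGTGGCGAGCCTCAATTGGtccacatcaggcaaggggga
Herpud1: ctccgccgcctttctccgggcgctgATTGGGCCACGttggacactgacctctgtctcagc

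The core of the composite element bound by ATF4 with C/EBP factors, TGATGNAA, lay in 4 of the 7 ATF4 targets, Trib3, Chac1, Asns and Slc7a11, or 57.1%, against 4.51% of all genes. It was also found in Atf3 and in Herpud1. The windows of Atf3 (chr1:191183410-191183469, minus strand), Chac1 (chr2:119351023-119351082, plus strand) and Asns (chr6:7693210-7693269, minus strand) are given with the match in capitals, which in Atf3 and Chac1 is the same 8 bases in the opposite orientation.
Atf3: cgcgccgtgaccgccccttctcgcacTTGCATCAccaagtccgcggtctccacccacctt
Chac1: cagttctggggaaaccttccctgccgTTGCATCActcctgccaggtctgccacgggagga
Asns: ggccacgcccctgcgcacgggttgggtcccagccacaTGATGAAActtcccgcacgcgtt
The perfect heat shock element, in which GAA, TTC and GAA follow one another with 2 bases of any kind between them, was matched in 1 of the 5 heat shock genes with a window, Hsph1, downstream of its start, and in 0.662% of all genes. A match is a run of letters and not a binding site shown in these cells.

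**Figure D1:**
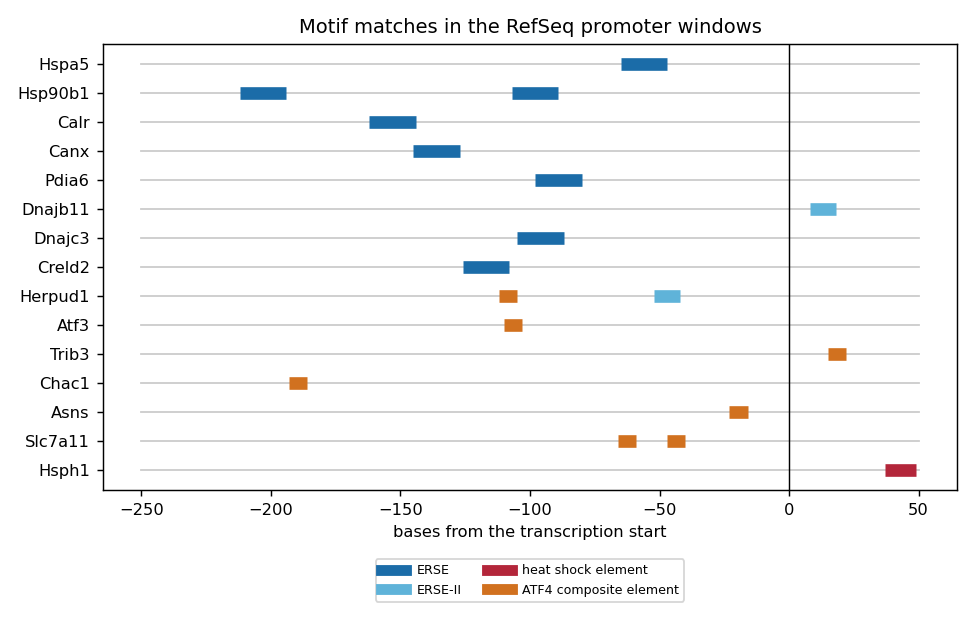
Motif matches (coloured blocks) along the promoter windows of the genes with at least 1 match, in bases from the RefSeq transcription start at 0. ERSE matches fall upstream of the start in 7 ER genes, from -212 in Hsp90b1 to -47 in Hspa5, whereas the matches of Dnajb11, Trib3 and Hsph1 lie downstream of it.

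The 32 genes measured differed between Baf53a- and Baf53b-expressing cells about as much as all genes on the array did, taken over all brightness groups. The difference was below 0.1 in size for 17 of them, or 53.1%, beside 52.2% of all genes, and its median was -0.01 with 15 genes higher and 17 lower, where 49.1% and 50.9% of all genes were, beside a median difference of -0.003 over all 16608 genes measured. With cyclic loess or quantile normalization 21 were higher and 11 lower, with medians of 0.04 and 0.05, so that the list as a whole has no settled direction. In Baf53b-expressing cells 1 of the 32, Atf3, was at least 1.2-fold higher, where 8.47% of all genes were, and 0 were at least 1.2-fold lower, where 3.41% were. None differed 2-fold, which held for 0.102% of all genes on the higher and 0.0903% on the lower side. These shares come largely from dim genes, since 26.7% of the dimmest of 5 brightness groups were at least 1.2-fold higher, whereas 19 of the 32 belonged to the brightest group and 10 to the next. In the brightest group 1.11% of its genes were at least 1.2-fold higher and 0.972% lower. In the next, to which Atf3 belonged, 1.62% were higher and 1.18% lower.

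**Figure D2:**
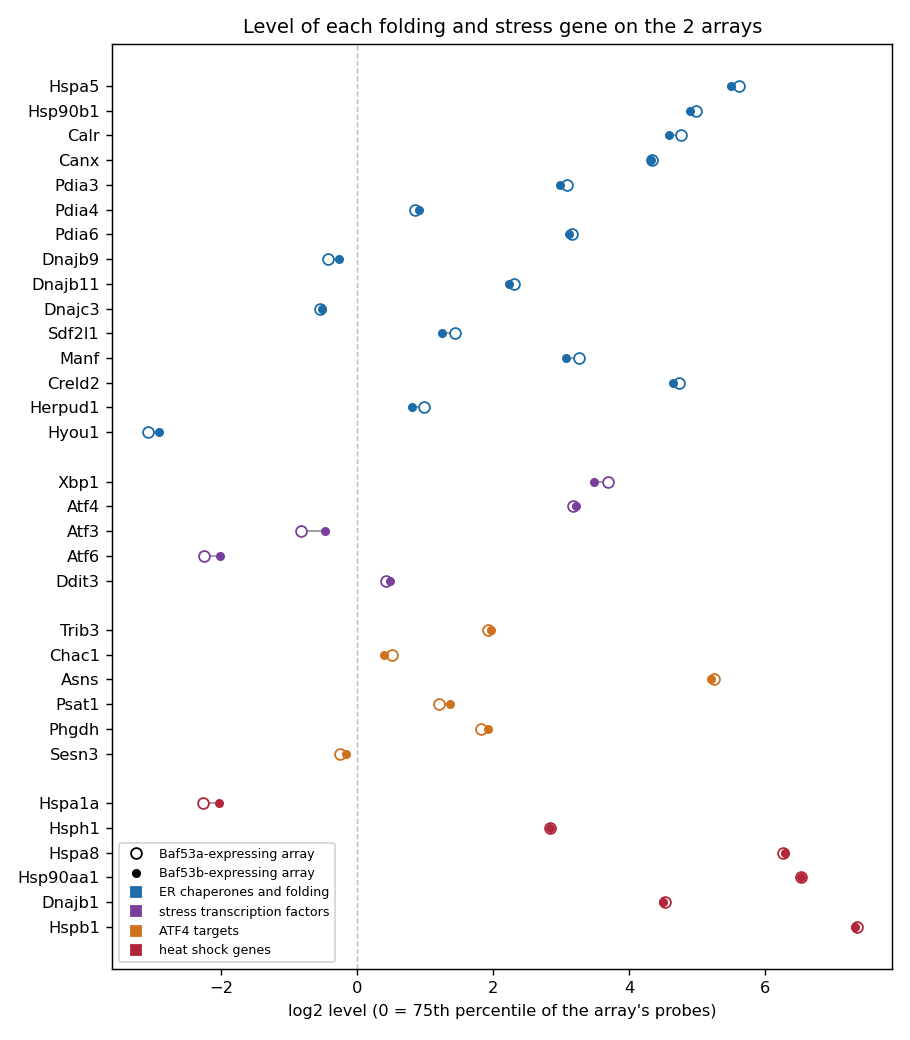
Log2 level of each measured gene relative to the 75th percentile of its array (0, dashed) in Baf53a-expressing (open) and Baf53b-expressing cells (filled), 1 array each, averaged over the probes of a gene. The pairs nearly coincide for most genes, and Atf3 shows the widest gap, from -0.82 to -0.47. Positions of different genes on the axis are not comparable, since probes differ in brightness.

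The scale of error within an array was taken from 324 probes printed at 5 or more spots. The SD that spot noise alone gives to a difference was 0.27 for the dimmest group, 0.12, 0.08 and 0.07 in the next 3 and 0.06 in the brightest, for a probe at 1 spot. It holds no variation between cultures, labellings or hybridisations. This SD was taken on the processed signal and was not recomputed for any other setting. It was also applied unchanged to genes averaged over several probes. The difference of 20 of the 32 genes, or 62.5%, was larger than this SD, beside 50.9% of all genes and 63.0% of those in the brightest group. The median difference also moved with brightness over all genes, being 0.09 for the dimmest group and -0.06 for the brightest, so that a bright gene at 0 stood above its peers. The same was seen within genes: among the 7 measured genes with several probes well above background, the dimmest probe had the highest difference in all 7.

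**Figure D3:**
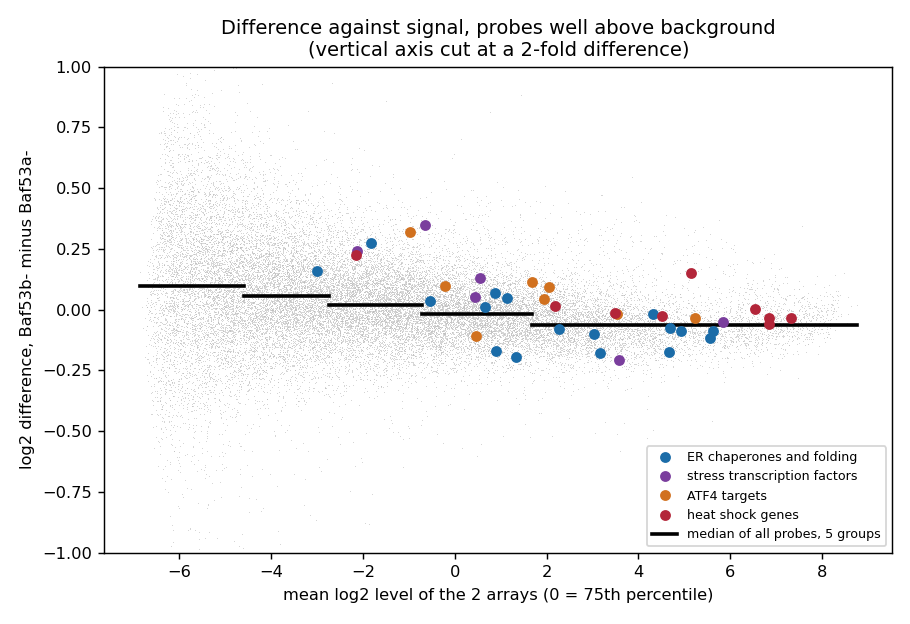
Log2 difference (Baf53b- minus Baf53a-expressing) of each probe against its mean log2 level over both arrays. Grey dots are all probes well above background, coloured dots those of the folding and stress genes, and black bars the median of all probes in 5 groups of equal size, which goes down from 0.10 to -0.06. The axis is cut at a 2-fold difference, beyond which 74 probes lie and no coloured one.

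Of the 15 ER chaperones and folding factors, 11 were lower and 4 higher in Baf53b-expressing cells, with a median of -0.08 and a range from -0.20 to 0.16, beside 50.9% of all genes that were lower. Hspa5 encodes BiP, the Hsp70 of the ER, and its level stood at 5.62 in Baf53a- and at 5.50 in Baf53b-expressing cells, a difference of -0.12. Hsp90b1, the Hsp90 of the ER, had levels of 4.98 and 4.89 and a difference of -0.09. With cyclic loess Hspa5 was at -0.05 and Hsp90b1 at -0.03, both within the spot SD of 0.06. The lectin chaperone Calr stood at 4.76 and 4.59, a difference of -0.18 that exceeded the spot SD of 0.06. Its membrane-bound relative Canx, at 4.34 and 4.32, differed by -0.02, less than the spot SD, and by 0.04 with cyclic loess and 0.06 with quantile normalization, so that its sign is not settled. Calr and Canx work in the same glycoprotein folding cycle with Pdia3, an oxidoreductase whose levels were 3.09 and 2.99.

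Of the other disulfide isomerases Pdia4 was at 0.85 and 0.92. Pdia6 was at 3.16 and 3.12, the mean of probes that differed by -0.09 and 0.01. The difference of Pdia6, -0.04, was within the spot SD of 0.06. It turned to 0.009 with cyclic loess and 0.0003 with quantile normalization, so that its sign is not settled. Among the J-domain proteins, which hand clients to BiP, Dnajb11 had levels of 2.31 and 2.23 and Dnajc3, an inhibitor of PERK, -0.55 and -0.51. A second probe of Dnajb11 was not well above background on either array and was not used. Dnajb9, which binds and restrains IRE1 together with BiP, was at -0.43 and -0.27. Its probes differed by 0.05 and 0.27, the larger value at the dimmer probe. Hyou1, the nucleotide exchange factor of BiP, stood at -3.08 and -2.92, a difference of 0.16 against a spot SD of 0.119. With quantile normalization, at 0.116, cyclic loess, at 0.105, and normexp, at 0.096, Hyou1 was within that SD, which was not recomputed for these settings.

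Sdf2l1, Manf and Herpud1 had the lowest differences of the ER group beside Calr. Sdf2l1, a partner of Dnajb11 at BiP, was at 1.44 with Baf53a and 1.25 with Baf53b, a difference of -0.20. Manf, a secreted factor that also binds BiP, was at 3.26 and 3.08 and differed by -0.18. Herpud1, a membrane protein of ER-associated degradation, was at 0.98 and 0.81 and differed by -0.17. Creld2 was the only one of the 34 genes printed at several spots. Its spots ran from 4.694 to 4.759 with a median of 4.735 over 9 spots in Baf53a-expressing cells, and from 4.587 to 4.694 with a median of 4.667 over 10 spots in Baf53b-expressing cells. The spots of both arrays just failed to overlap, for a difference of -0.08 that leaves out all error between arrays and came down to -0.02 with cyclic loess and -0.01 with quantile normalization.

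Brightness moved with this result. For the 9 ER genes in the brightest group the median difference was -0.09 beside -0.06 for all genes of that group, and 7 of the 9 lay below that value. For the 5 in the next group it was 0.04 beside -0.02. Over the group, 9 of 15 lay below the median of all genes as bright. With cyclic loess, which removes a shift that follows brightness, the median of the 15 was -0.03 with 9 lower, so that the count of 11 and the size of the shift rest in part on the scaling. Primitive endoderm markers also differed between the arrays, with a median of 0.28 over 8 genes given further on, and their part in this result was not tested. Calr, Sdf2l1, Manf and Herpud1 were lower by more than the spot SD under all 11 settings tried, Sdf2l1 between -0.22 and -0.16. The same rule, in either direction, was met by 31.2% of all genes with a value in every setting. It was met by 33% in the brightest group and 34% in the next, so that such genes were common. Most settings could hardly move Calr, Sdf2l1, Manf and Herpud1, each read by a single probe well above background. For them the rule rests on quantile normalization, cyclic loess, median centring and normexp.

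**Figure D4:**
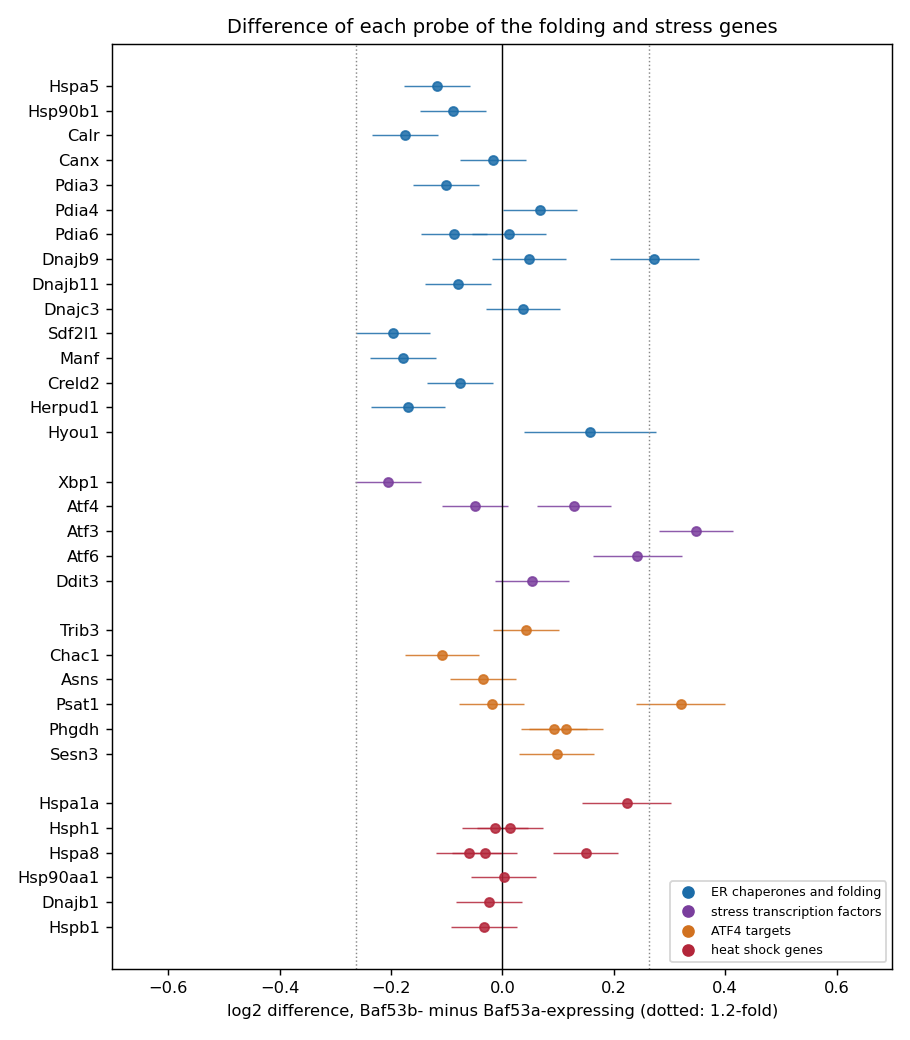
Log2 difference (Baf53b- minus Baf53a-expressing) of each probe well above background, 1 point per probe, with bars of 1 SD of spot noise taken from replicated probes of the same brightness group. Dotted lines mark 1.2-fold. Points of Calr, Sdf2l1, Manf, Herpud1 and Xbp1 lie left of 0 and those of Atf3, Atf6 and Hspa1a right of it by more than the bar, and the probes of Psat1, Atf4 and Hspa8 lie apart.

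Among the 5 stress transcription factors 4 were higher and 1 lower, beside 49.1% of all genes that were higher. With the brightest probe per gene 3 were higher and 2, Xbp1 and Atf4, were lower. Atf3, an early response gene that ATF4 and other stress factors induce, had a signal of 659 with Baf53a and 815 with Baf53b. On the scaled values its level was -0.82 and -0.47, a difference of 0.35 or 1.27-fold, and it stayed between 0.33 and 0.35 under all settings. Atf6, the sensor that becomes a transcription factor, was at -2.25 and -2.01, a difference of 0.24 that stayed between 0.21 and 0.24. Xbp1 went the other way, at 3.69 and 3.48, with a difference of -0.20 that stayed between -0.23 and -0.15. A probe signal gives the sum of Xbp1 transcripts as far as the probe reaches them and does not tell spliced from unspliced mRNA.

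The 2 factors most closely tied to eIF2α phosphorylation differed by less than the spot SD on this scale. Atf4 had levels of 3.17 and 3.21, from a probe that differed by -0.05 and a dimmer one that differed by 0.13. With cyclic loess, at 0.09, and quantile normalization, at 0.08, Atf4 was beyond its spot SD of 0.06. ATF4 is controlled mainly through translation of its mRNA, and its protein was not measured here. Ddit3, the gene of CHOP, was at 0.43 and 0.48, a difference of 0.05 against a spot SD of 0.07. With cyclic loess Ddit3 was at 0.08, beyond that SD. Both genes were well above background on both arrays.

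Of the 6 measured ATF4 targets 4 were higher and 2 lower, with a median of 0.07 and a range from -0.11 to 0.15. With the brightest probe per gene the split was 3 and 3 and the median 0.01, and with cyclic loess 5 were higher and 1 lower. Phgdh, the first enzyme of serine synthesis, stood at 1.82 and 1.92, and its probes differed by 0.09 and 0.11. Psat1, the next enzyme of that pathway, stood at 1.21 and 1.36, but its bright probe differed by -0.02 and its dim probe by 0.32. The higher mean of Psat1 thus came from 1 probe, and with the brightest probe alone the gene was at -0.02. Sesn3, a sestrin that restrains mTORC1, was at -0.26 and -0.16. Trib3, a pseudokinase that feeds back on ATF4, was at 1.92 and 1.96, within the spot SD of 0.06 on this scale. With cyclic loess, quantile normalization or normexp the difference of Trib3 was 0.08, beyond that SD. Asns, asparagine synthetase, was at 5.24 and 5.21 and Chac1, which degrades glutathione, at 0.51 and 0.40. Of the 3 measured targets with an ATF4 element in the window, Chac1 and Asns were lower and Trib3 higher, and with cyclic loess or quantile normalization Asns was higher too, at 0.03 and 0.02. Atf3, with the same 8 bases as Chac1, was higher.

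Of the 6 measured heat shock genes 5 lay close to 0. In the brightest group were Hspb1, a small heat shock protein, at 7.35 and 7.32, Hsp90aa1, the inducible cytosolic Hsp90, at 6.53 with a difference of 0.002, and Dnajb1, a J-domain partner of Hsp70, at 4.53 and 4.51. Hsph1, an Hsp110 exchange factor, was at 2.84 in both, its probes differing by -0.01 and 0.01. Hspa8, the constitutive Hsp70, was at 6.27 and 6.29, the mean of 3 probes that ran from -0.06 to 0.15. All 5 of these differed by less than the spot SD on this scale, where 50.9% of all genes differed by more, but with cyclic loess Hspa8, at 0.09, and Hsp90aa1, at 0.07, were beyond it. Hspa1a, the inducible Hsp70, was at -2.26 and -2.04, a difference of 0.22 against a spot SD of 0.08. Its value is uncertain as to gene, since Hspa1b is a near-identical copy that may share the signal. The promoter windows of both genes were equal at 296 of 300 bases, but their transcripts and the probe were not compared. The median of the 6 was 0.001 with 3 higher and 3 lower, but 6 of 6 lay above the median of all genes in their brightness group. With cyclic loess or quantile normalization 6 of 6 were higher, and with centring on the median 1 was higher and 5 lower, so that no direction can be given for the group.

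The other genes of these pathways, 98 measured of 99 listed, gave a median of -0.04 with 34 higher and 64 lower, and 50 of the 98 below the median of their brightness group. With cyclic loess the split was 45 higher and 53 lower and the median -0.006. At least 1.2-fold higher were 2 of them and at least 1.2-fold lower 1, beside the 8.47% and 3.41% of all genes. With cyclic loess or quantile normalization the counts were 3 and 2. Of the sensors and eIF2α pathway genes 6 of 12 were higher, or 5 with cyclic loess and 3 with centring on the median, with a range from Nupr1, a stress-induced chromatin protein, at -0.20 to Eif2ak2, the kinase PKR, at 0.09. In ER-associated degradation 7 of 14 were higher, or 6 with the brightest probe per gene and 5 with centring on the median. Edem2, a mannosidase of that pathway, had the highest difference on this scale, at 0.12. With cyclic loess, quantile normalization and normexp Os9 had the highest instead, at 0.11, 0.11 and 0.08. Derl3, a membrane protein that helps to carry misfolded proteins out of the ER, was the lowest, at 2.06 with Baf53a and 1.63 with Baf53b. Its difference of -0.43 was the largest in size of all 130 folding and stress genes measured here. The promoter of Derl3 held an ERSE, as did those of 7 of the 13 ER genes with a window. Of all 23 measured genes with an ERSE, 2 were at least 1.2-fold higher and 2 lower, Derl3 among the latter. The ERSE of Derl3 is shown in capitals for chr10:75893221-75893280 on the plus strand.
Derl3: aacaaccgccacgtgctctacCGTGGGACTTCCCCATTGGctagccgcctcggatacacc

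The motifs were then set beside the differences. Of the 37 genes with an ERSE, 23 were measured, with 7 higher, 16 lower (69.6%) and a median of -0.03, beside 51.6% lower and a median of -0.01 for the 13193 measured genes with any window. Outside the 34 genes the median of the 16 holders was -0.02, with 6 higher and 10 lower. Of the 9 measured genes with an ERSE-II 4 were higher and 5 lower, with a median of -0.06. Outside the 34 genes 4 of these were higher and 3 lower, with a median of 0.03. Among the ER group, 8 of the 9 genes with ERSE or ERSE-II were lower, with a median of -0.08, and 2 of the 4 with a window but neither motif. With cyclic loess or quantile normalization 6 of the 9 were lower, and 7 of the 9 but 1 of the 4 lay in the brightest group. The 424 measured genes with the ATF4 element had a median of 0.02, and the 71 with the heat shock element one of -0.005.

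Of 14 further ER folding and translocation genes 5 were higher, from Sec61b, a subunit of the translocation channel, at -0.21 to Ero1b, a disulfide oxidase with an ERSE, at 0.10. Of 26 other ATF4 targets 7 were higher and 19 lower, with a median of -0.04, but with cyclic loess or quantile normalization the split was 12 and 14. The highest was Ddit4, an inhibitor of mTORC1, at 0.24, which passed 1.2-fold with cyclic loess, at 0.30, and quantile normalization, at 0.31. The lowest was Aldh1l2, a mitochondrial folate enzyme, at -0.23, within its spot SD of 0.27, and its value ran from -0.36 with quantile normalization to 0.10 with normexp. Fgf21 was not well above background. Of 22 other heat shock and cytosolic chaperone genes 8 were higher, and 2 passed 1.2-fold. These were Cryab, the αB-crystallin, at 1.25 and 1.58 with probes that differed by 0.28 and 0.39, and Hspa2, an Hsp70 best known from the testis, at -0.28 and 0.05. Hspb6, another small heat shock protein, had the lowest difference of that list on this scale, at -0.15. With cyclic loess or quantile normalization Hspa1l was lower, at -0.18 in both, within its spot SD of 0.27. Of 10 mitochondrial chaperones and proteases 1, the Hsp70 Hspa9 at 0.07, was higher, and the lowest was the protease Yme1l1 at -0.12. With cyclic loess this split was 5 higher and 5 lower.

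**Figure D5:**
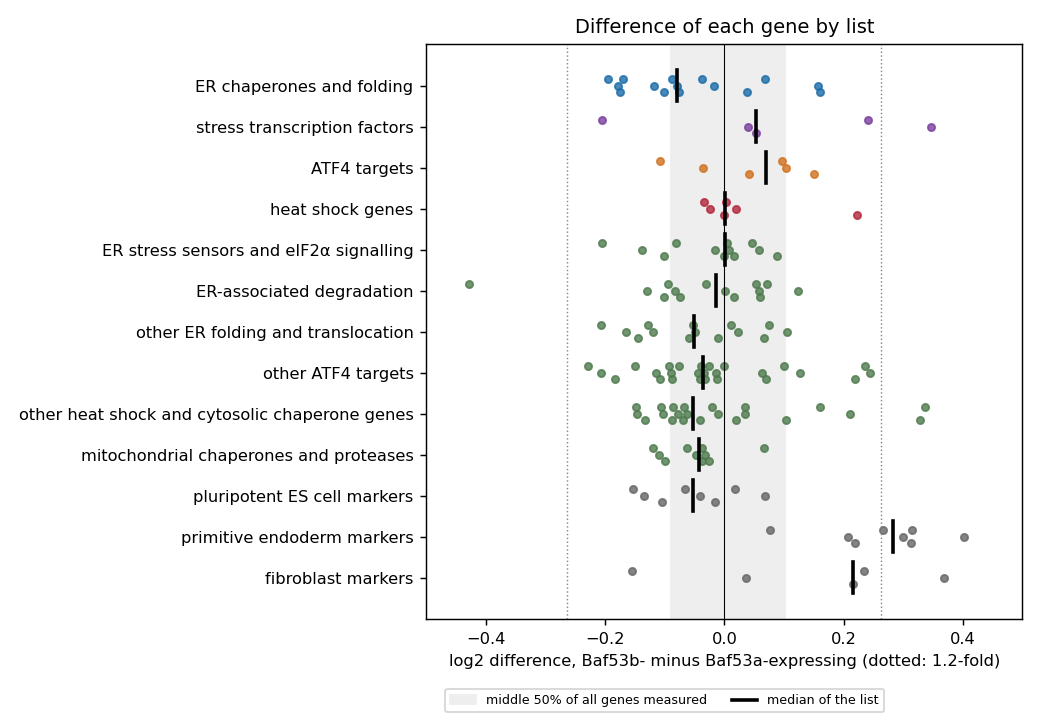
Log2 difference (Baf53b- minus Baf53a-expressing) of each measured gene, 1 point per gene, for the 4 groups, the further pathway lists and the marker lists, with the list median as a black bar. The grey band holds the middle 50% of all genes, from -0.09 to 0.10, and dotted lines mark 1.2-fold. Medians of the folding and stress lists lie between -0.08 and 0.07, inside the band, and those of the primitive endoderm and fibroblast markers lie above it.

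Markers of other cell types were read from the same arrays. All 8 primitive endoderm markers were higher in Baf53b-expressing cells, with a median of 0.28, and 5 passed 1.2-fold, beside 8.47% of all genes. With normexp 2 passed it, with cyclic loess, quantile normalization or centring 4, and 8 of 8 were higher under each. Their differences were 0.22 for Gata4, 0.21 for Gata6, 0.27 for Sox17, 0.08 for Sox7, 0.31 for Foxa2, 0.40 for Dab2, 0.30 for Lama1 and 0.31 for Pdgfra. Their summed signal in units of the 75th percentile, a sum that weights each gene by the brightness of its probe, was 20.9 and 25.7, and the probe of Lama1 supplied 90.6% of it in Baf53a-expressing cells. Primitive endoderm is the extraembryonic lineage that lays down basement membrane. Whether more such cells, or more RNA of these genes per cell, lay behind the sums cannot be told apart in bulk RNA, and their part in the differences of the folding genes was not tested.

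The sum of the same kind for the 8 pluripotency markers was 305 and 295, of which the Dppa5a probe supplied 46% in Baf53a-expressing cells, and 2 of the 8 were higher, or 4 of the 8 with cyclic loess or quantile normalization. The differences were -0.13 for Pou5f1, -0.07 for Nanog, 0.07 for Sox2, -0.15 for Esrrb, -0.11 for Zfp42, -0.04 for Klf4, -0.02 for Tdgf1 and 0.02 for Dppa5a. Of 7 fibroblast markers 5 were measured, and their sum of 1.25 and 1.22 came mostly from the Thy1 probe. The differences were 0.04 for Col1a1, 0.22 for Col1a2, -0.15 for Thy1, 0.37 for Dcn and 0.23 for Lum, while Postn was not well above background on either array and Col3a1 only in Baf53b-expressing cells. The part of either list in the differences of the folding genes was not tested.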

How the data were processed

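Total RNA of ES cells lacking Baf53a and expressing Baf53a or Baf53b from a vector was hybridised to Agilent whole mouse genome arrays, 1 for each. Feature Extraction 11.0.1.1 was used by the authors, who deposited for each spot a processed intensity, background-subtracted and detrended. The array design names mm9. A second deposited table holds each probe as a ratio to 1 number per array and served only as an alternative. Of 43020 gene spots per array, 173 and 143 outlier spots were left out and 0 were saturated. Spots of the same probe were averaged as log2 intensities, and the array's 75th percentile was then taken off. Probes needed the flag for well above background on 50% or more of their spots, and 75.2% and 76.4% had it. The lowest such signal was 8.45 and 9.75. Genes were named through RefSeq accessions (GRCm38.p6, another build than that of the design, used for names and promoter sequences) and are means over those of their probes that had the flag on both. The number of arrays limits the precision. The members and all lists were chosen with earlier results of these data known. Named were all members, all markers, and from the pathway lists each gene at least 1.2-fold apart and the highest and lowest of each list, by the differences scaled to the 75th percentile. Alternatives were quantile normalization, median centring, cyclic loess, other filters, outlier spots kept, normexp (offset 50, on the median spot signal), the brightest probe per gene and the authors' table. Protein sequences were not analysed here. Python 3.11.15, numpy 2.4.6, pandas 2.3.3, R 4.3.3 and limma 3.58.1 were used. The scaling and a count of 2-fold differences were tested on simulated data with planted changes beyond 2-fold. Smaller differences and the other steps were not simulated.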

Additional observations from a re-analysis of the deposited data

How the results depend on the processing

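Results were recomputed under 10 alternatives. No paired analysis was possible because each condition had a single array, and for the same reason no array could be left out. The median difference of the ER chaperones was -0.08 and became -0.0310 with quantile normalization, -0.0262 with cyclic loess and -0.10 with centring on the median. That of the stress transcription factors was 0.05 and became 0.0827 with quantile normalization and 0.0859 with cyclic loess. That of the ATF4 targets was 0.07 and became 0.0954 with cyclic loess, 0.0422 without a filter on dim probes, where the dim probe of Slc7a11 enters, and 0.0113 with the brightest probe per gene. That of the heat shock genes was 0.001 and became 0.0576 with quantile normalization and 0.0610 with cyclic loess. Over all 32 genes it was -0.009 and became 0.050 with quantile normalization, 0.0422 with cyclic loess, 0.0101 with normexp, -0.0291 with centring on the median and -0.0287 with the brightest probe. The cause of the other changes was not tested. The count of genes at least 1.2-fold higher was 1 and became 2 without the filter and 2 with a weaker detection flag, in both through the dim second probe of Dnajb11. The sign was kept for 26 of 32 genes with quantile normalization, 26 with cyclic loess, 29 with the brightest probe, 30 with centring on the median and 31 or 32 with the other alternatives. The 11 genes beyond the spot SD with the same sign in every setting were Calr, Sdf2l1, Manf, Herpud1, Xbp1 and Chac1, which were lower, and Atf3, Atf6, Phgdh, Sesn3 and Hspa1a, which were higher, or 34.4% of the 32 beside 31.2% of the 13348 genes with a value in every setting. In the brightest group 33% of genes met this rule and in the next 34%. For these 11 genes the other filters, kept outlier spots and the authors' values left the difference almost unchanged. The rule thus rests on quantile normalization, cyclic loess, median centring, normexp and, for Phgdh, the brightest probe. Over all genes 8.47% were at least 1.2-fold higher and 3.41% lower, against 6.03% and 5.11% with cyclic loess, 5.55% and 5.41% with quantile normalization, 12.5% and 6.22% without the filter on dim probes, 4.31% and 1.95% with a stricter one and 2.91% and 0.692% with normexp.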
